A study of Mus musculus with 8 samples.

Results

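Heme oxygenase 1 (Hmox1) and 9 genes of the NRF2 antioxidant system were followed in RAW264.7 cells, a mouse macrophage-like cell line, after exposure to recombinant FSTL1 (rFSTL1). FSTL1 is a secreted glycoprotein. The 10 members are Hmox1, Nqo1, Gclm, Gclc, Txnrd1, Srxn1, Nfe2l2, Keap1, Bach1 and Prdx1, and they were taken by symbol from the 22013 genes of the deposited count table. The set was chosen by the measured difference of Hmox1 between rFSTL1 and PBS in these libraries, and the other members were added as known genes of the NRF2 system. The rFSTL1 and PBS values of the members are therefore a description of the libraries, and the calls given for them come from a fit over all genes and are not independent evidence.

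There were 4 libraries of cells treated with rFSTL1 at 100 ng/mL for 24 h and 4 of cells given PBS. All libraries were poly(A) RNA of the same line, and no gene was deleted in either group. The labels do not say whether the 4 libraries of a group were separate cultures, so a p-value here measures the spread between libraries, which may be technical. The question was whether Hmox1 was higher under rFSTL1 together with other NRF2 genes or without them.

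NRF2, encoded by Nfe2l2, is a transcription factor that is kept low by KEAP1, an adaptor that brings it to a CUL3 ubiquitin ligase for degradation. Oxidants and electrophiles disable KEAP1, and NRF2 then pairs with small MAF proteins and binds antioxidant response elements (AREs) near its target genes. BACH1 is a repressor that competes for the same elements with the same partners and that leaves them when heme binds it. In macrophages this system is known for glutathione and thioredoxin synthesis, for quinone reduction and, through Hmox1, for the breakdown of heme into biliverdin, carbon monoxide and iron.

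The total count per library was 15183112 to 20234472 under PBS and 15062026 to 19260966 under rFSTL1. Values are given as CPM, the count scaled to one common library total with TMM factors, and as the log2 fold change of rFSTL1 over PBS from edgeR's quasi-likelihood fit. Of 10748 genes tested, 35 were called higher (0.326%) and 2 were called lower (0.0186%) at a Benjamini-Hochberg adjusted p-value under 0.05. These shares are not stable: the number called ranged from 11 without PBS replicate 2 to 454 with limma voom. All 8 listed macrophage markers were tested, and none was called. Their summed levels were 3861 to 4025 CPM under PBS and 3832 to 4052 CPM under rFSTL1. Adgre1, which encodes F4/80, was low at 3.43 CPM under PBS. Of 11 markers of fibroblasts, epithelium, T cells, endothelium, hepatocytes and neutrophils, none had enough counts to be tested. Their summed level was 0.526 to 1.40 CPM under PBS and 0.523 to 1.54 CPM under rFSTL1. Epcam, Cd3e, Ly6g and Elane were at 0 counts in all libraries. In bulk RNA a lower level can mean fewer cells of a kind or less RNA per cell, and these cannot be told apart.

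ARE-like letters lie just upstream of 5 members in the RefSeq promoter table (build GRCm38.p6), which holds windows for 8 of the 10 members, all but Hmox1 and Gclc. The 250 bases before each start site were searched on both strands for TGACNNNGC, the core of the ARE, and for TGAGTCAGC or TGACTCAGC, forms that small MAF heterodimers can also bind. TGACTCAGC is also a case of TGACNNNGC and contains the AP-1 letters TGACTCA, and TGAGTCAGC holds the same AP-1 letters on its other strand. Of all 32851 promoter windows of this length, 10.2% held TGACNNNGC and 0.706% held TGAGTCAGC or TGACTCAGC. The stretches around the matches are shown 5′ to 3′ on the strand of the gene, with the matched letters in capitals, because NRF2 is known to bind letters of this kind. A match is a description of letters and not of a bound site. The Srxn1 stretch is chr2:152105459-152105507 (plus strand), that of Prdx1 is chr4:116685446-116685494 (plus), that of Gclm is chr3:122245403-122245451 (plus), that of Nfe2l2 is chr2:75704875-75704913 (minus), and that of Txnrd1, before the second of its 3 listed start sites, is chr10:82859094-82859142 (plus). None of these stretches overlaps an exon of its gene in GENCODE vM21. The Srxn1 and Nfe2l2 matches are on the strand of the gene, and the other 3 read in the opposite direction.
Srxn1: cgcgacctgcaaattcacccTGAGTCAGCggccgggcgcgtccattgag
Prdx1: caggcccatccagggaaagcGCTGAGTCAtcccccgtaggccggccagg
Gclm: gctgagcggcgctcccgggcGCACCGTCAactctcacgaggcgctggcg
Nfe2l2: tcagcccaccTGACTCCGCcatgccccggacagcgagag
Txnrd1: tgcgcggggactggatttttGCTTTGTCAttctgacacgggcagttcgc

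Under PBS the members differed widely in level. Levels between genes are compared as CPM per kb of merged exons (GENCODE vM21), because longer transcripts collect more reads. Prdx1, a peroxiredoxin that reduces hydrogen peroxide, had the highest level, at 213 ± 5.04 CPM per kb (SD, n = 4). Hmox1 was next at 65.3 ± 2.17 CPM per kb (SD, n = 4), followed by Nfe2l2 at 58.4 ± 1.24 CPM per kb (SD, n = 4). Txnrd1, the cytosolic thioredoxin reductase, had 38.7 ± 1.36 CPM per kb (SD, n = 4). Gclc and Keap1 had 22.1 and 21.9 CPM per kb, and their ranges over the 4 PBS libraries overlapped, so that they did not differ beyond their spread. Srxn1, which repairs overoxidized peroxiredoxins, had 17.4 CPM per kb, Gclm 7.85 and Bach1 5.85. All other neighbours in this order were separated in all 4 PBS libraries. That separation covers the spread between libraries only, since the same merged length of a gene divides them all. It does not cover the choice of length, and merged exons may be longer than the transcripts present. In CPM without length, Nfe2l2 (222) was above Hmox1 (114), so the order of these genes turns on the lengths used. Nfe2l2 was above its repressor Keap1 and above Bach1 by either measure. Nqo1 stood apart at 0.0620 CPM per kb.

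**Figure D1:**
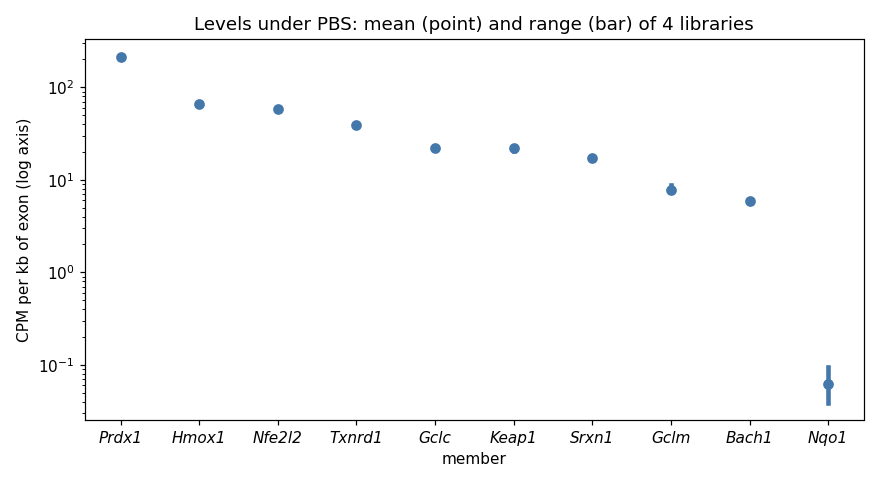
Level of each member under PBS, as CPM per kb of merged exons on a log axis; points are means and bars are ranges of 4 libraries. Prdx1 is highest at 213 CPM per kb, Hmox1 is second at 65.3, and Nqo1 is at 0.0620.

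Hmox1 (ENSMUSG00000005413) had 111, 117, 118 and 111 CPM in PBS replicates 1 to 4 and 162, 140, 136 and 153 CPM in rFSTL1 replicates 1 to 4. All 4 rFSTL1 libraries lay above all 4 PBS libraries, as they did for 4.63% of all genes tested. The lowest rFSTL1 value was 136 CPM against a highest PBS value of 118 CPM. Its PBS mean was 114 ± 3.80 CPM and its rFSTL1 mean was 148 ± 12.0 CPM (SD, n = 4 in each group), which is 29.2% higher. The fitted log2 fold change was 0.37 (SE, the standard error, 0.05, 95% interval 0.25 to 0.48), with an adjusted p-value of 0.00676 by edgeR. These are the values by which the set was chosen. By p-value Hmox1 was in place 9 of the 10748 genes tested, and by size of the fold change it was in place 19 among the 35 genes called higher. Without PBS replicate 4 the log2 fold change was 0.35 and the adjusted p-value by edgeR was 0.0631, so the call was lost. In the other 7 fits that each left out 1 library the call was kept.

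Of the 9 members with enough counts to be tested, 1 was called higher and none was called lower, against 0.326% and 0.0186% of all genes tested. The called member was Hmox1, and since the set was chosen by this contrast nothing is read from the count. At an unadjusted p-value under 0.05, edgeR had 2 of the 9, Hmox1 (higher) and Txnrd1 (lower), where 15.9% of all genes tested passed it, 8.29% higher and 7.56% lower. DESeq2 and limma voom also called Hmox1 and no other member, where DESeq2 called 2.12% of the 9289 genes to which it gave an adjusted p-value and limma voom called 4.22% of the 10748, in either direction. Of the other 8 tested members, 7 had a negative and 1 a positive log2 fold change, between -0.10 and 0.08, with a median of -0.05. The median over all genes tested was 0.01, and 48.0% of them had a negative value.

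**Figure D2:**
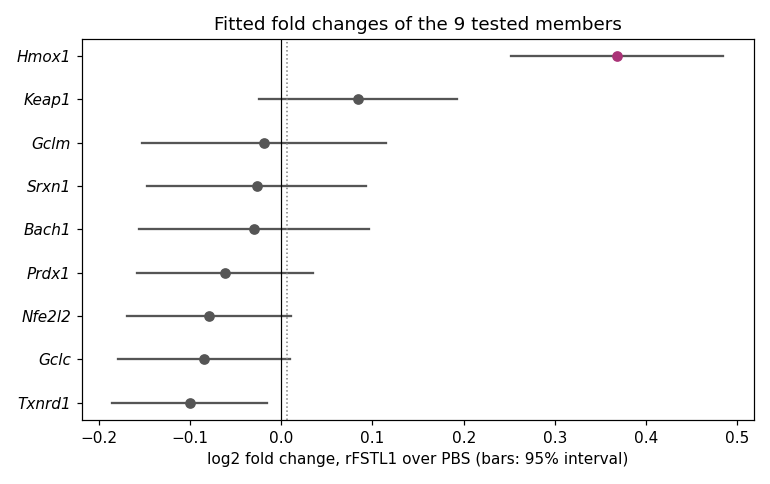
Log2 fold change of rFSTL1 over PBS for the 9 tested members, with 95% intervals from edgeR; the dotted line is the median of all genes tested. Hmox1 (coloured) is at 0.37, and the other 8 lie between -0.10 and 0.08.

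None of the 3 regulators, Nfe2l2, Keap1 and Bach1, was called. Nfe2l2 had 219, 224, 227 and 217 CPM in the PBS libraries and 218, 197, 213 and 211 CPM in the rFSTL1 libraries. The groups overlapped, and all 4 rFSTL1 libraries were under the PBS mean of 222 CPM. The log2 fold change of Nfe2l2 was -0.08 (SE 0.04, 95% interval -0.17 to 0.01, adjusted p = 0.368 by edgeR). NRF2 is controlled chiefly as a protein, which was not measured here.

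Keap1, the adaptor that holds NRF2 down, had 103, 95.1, 108 and 105 CPM under PBS and 104, 104, 114 and 113 CPM under rFSTL1. It was the 1 tested member other than Hmox1 with a positive log2 fold change, 0.08 (SE 0.05, adjusted p = 0.436 by edgeR), and its groups overlapped. Bach1, the repressor of Hmox1, had 36.2, 37.3, 35.8 and 35.4 CPM under PBS and 32.1, 36.6, 36.6 and 36.2 CPM under rFSTL1. Its log2 fold change was -0.03 (SE 0.06, 95% interval -0.16 to 0.10), and it was 0.01 without rFSTL1 replicate 1, the low library. For neither regulator did the difference pass the threshold.

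Glutathione synthesis begins with glutamate-cysteine ligase, of which Gclc encodes the catalytic and Gclm the modifier subunit. Gclc ranged from 82.1 to 84.7 CPM under PBS and from 75.4 to 82.3 CPM under rFSTL1, a log2 fold change of -0.08 (SE 0.04, adjusted p = 0.364 by edgeR). Its groups overlapped by a narrow margin, through rFSTL1 replicate 4. Gclm ranged from 46.4 to 55.6 CPM under PBS and from 46.1 to 50.4 CPM under rFSTL1, with a log2 fold change of -0.02 (SE 0.06). The sign of the Gclm difference was not stable, and it was 0.03 without PBS replicate 4, the library with 55.6 CPM.

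The thioredoxin branch was represented by Txnrd1, Srxn1 and Prdx1. Txnrd1 had 268, 269, 271 and 288 CPM under PBS and 258, 255, 251 and 259 CPM under rFSTL1. All 4 rFSTL1 libraries lay below all 4 PBS libraries, a separation in this direction that 3.53% of all genes tested had, against 4.63% for the opposite one. The log2 fold change of Txnrd1 was -0.10 (SE 0.04, adjusted p = 0.247 by edgeR) and did not pass the threshold. Its highest PBS value, 288 CPM, was in replicate 4, and without that library the log2 fold change was -0.08.

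Srxn1 ranged from 45.7 to 51.6 CPM under PBS and from 45.4 to 49.6 CPM under rFSTL1, with a log2 fold change of -0.03 (SE 0.06). Prdx1, the most abundant member, ranged from 626 to 661 CPM under PBS and from 577 to 659 CPM under rFSTL1. Its log2 fold change was -0.06 (SE 0.05), and rFSTL1 replicates 3 and 4, at 601 and 577 CPM, lay below every PBS library while replicates 1 and 2 did not. Srxn1 and Prdx1 each carry 1 of the forms TGAGTCAGC and TGACTCAGC, as shown above, and neither was called. Processed copies of Prdx1 exist in the mouse genome, and how shared reads were counted is not given in the sources used here.

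Nqo1, an NADPH-dependent quinone reductase that often serves as a readout of NRF2, was nearly absent. Its counts were 1, 2, 3 and 1 in the PBS libraries and 0, 1, 0 and 0 in the rFSTL1 libraries, and it was not tested. The ratio of rFSTL1 to PBS was 0.144 from 1 against 7 counts in all, with a 95% exact counting interval of 0.00318 to 1.12. The interval includes no change and covers counting error only, so a difference in Nqo1 was not established at this depth.

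**Figure D3:**
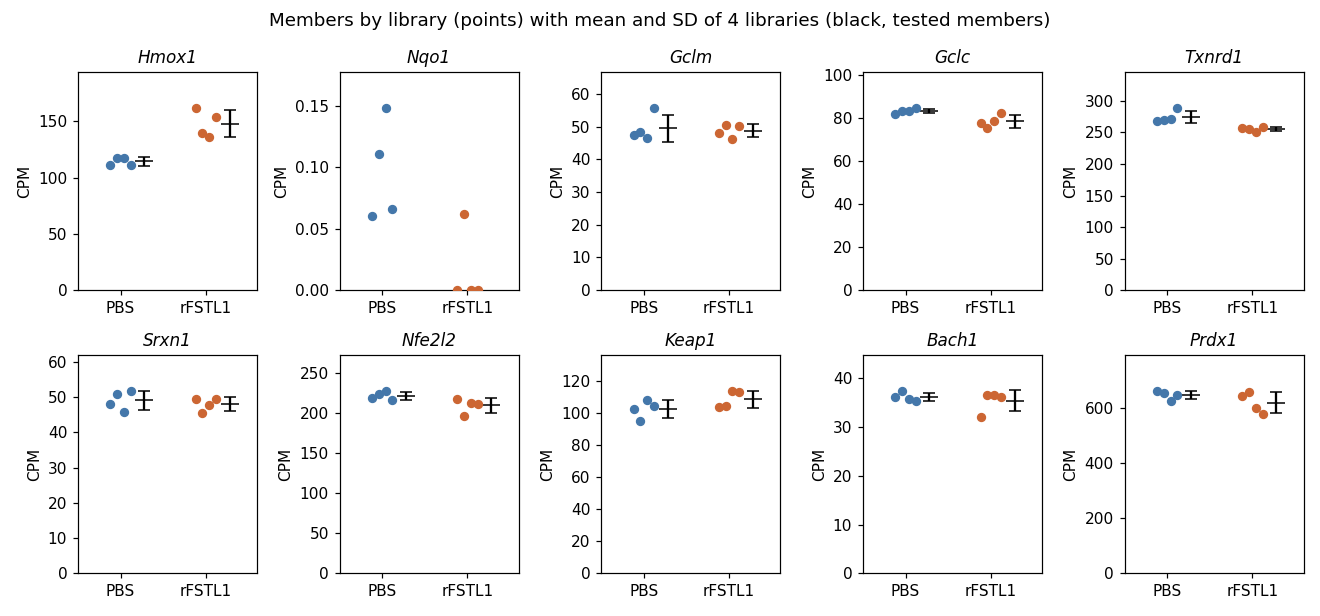
Level of each member in CPM (each y axis starts at 0) in the 4 PBS and 4 rFSTL1 libraries (points), with mean and SD (black) for tested members. Hmox1 separates the groups upward, Txnrd1 separates them downward by a small margin, and Nqo1 stays under 0.15 CPM.

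Library by library, the members were also set to their own PBS means. Relative to its PBS mean in log2(CPM + 1), Hmox1 was at -0.04 to 0.04 in the PBS libraries and at 0.50, 0.29, 0.25 and 0.42 in rFSTL1 replicates 1 to 4. The other 8 tested members lay between -0.17 and 0.17 over the 8 libraries. Txnrd1 was at -0.13 to -0.08 in the rFSTL1 libraries, below all PBS libraries, and Keap1 reached 0.15 in rFSTL1 replicate 3. The rFSTL1 libraries were more spread for Hmox1 (SD 0.12) than the PBS libraries (SD 0.05). Ratios of Hmox1 counts to those of another member do not depend on how libraries are scaled. They reuse the Hmox1 values that chose the set, so a separation is a description and not further evidence. The ratio of Hmox1 to Nfe2l2 counts was 0.506 to 0.524 under PBS and 0.638 to 0.742 under rFSTL1, with no overlap. The ratio of Hmox1 to Keap1 counts was 1.06 to 1.23 under PBS and 1.19 to 1.56 under rFSTL1, and the groups overlapped through PBS replicate 2 and rFSTL1 replicate 3. The ratio of Hmox1 to Bach1 counts was 3.06 to 3.29 under PBS and 3.71 to 5.03 under rFSTL1, with no overlap.

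The tested genes were also ordered by how like Hmox1 they were over the 8 libraries, as a description, since the Hmox1 values chose the set. Likeness was measured as the root mean square difference in log2(CPM + 1) from Hmox1, with each gene set to its own PBS mean. The 5 nearest of the tested genes were Lims2 (0.05), Gys1 (0.05), Fkbp7 (0.06), B3gnt3 (0.07) and Junb (0.07). Gys1 encodes glycogen synthase of muscle and most other tissues and went from 70.1 to 90.2 CPM, a log2 fold change of 0.36 (adjusted p = 0.00363 by edgeR). Junb, an AP-1 transcription factor, went from 76.7 to 97.8 CPM, a log2 fold change of 0.35 (adjusted p = 0.00895 by edgeR). Lims2 and Fkbp7 were at 1.31 and 1.15 CPM under PBS, where the pseudocount of 1 damps differences, and neither they nor B3gnt3 were called.

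**Figure D4:**
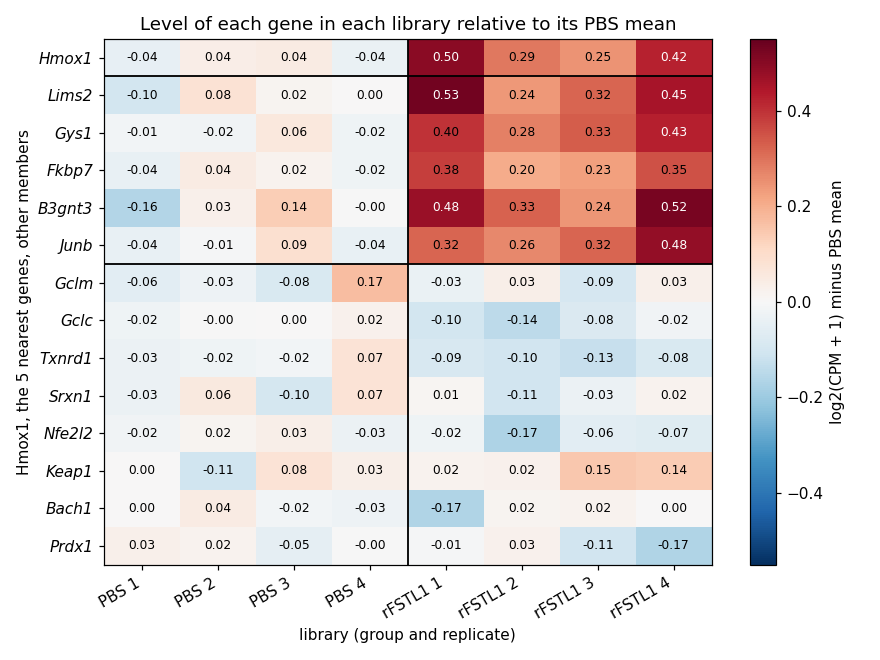
Log2(CPM + 1) of each gene minus its PBS mean in each of the 8 libraries, for Hmox1, the 5 genes nearest to it and the other 8 tested members. Hmox1 and its nearest genes are at 0.20 or higher in all rFSTL1 libraries, the nearest genes by the way they were chosen, and the other members lie between -0.17 and 0.17 throughout.

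None of the tested genes on 4 further lists was called by edgeR with the filter on low counts and all 8 libraries. The lists were chosen with earlier results of these data known. Slc48a1 and Blvrb are on both the NRF2 target list and the heme list. A list of 31 other NRF2 target genes covered glutathione transferases, cystine import, the pentose phosphate pathway, carbonyl reductases and ferritin. Of these 28 were tested, and none was called (against 0.326% of all genes higher and 0.0186% lower), while 4 had an unadjusted p-value under 0.05 by edgeR, 3 higher and 1 lower, where 15.9% of all genes tested passed it. DESeq2 called none of the 28, and limma voom called 2, Fth1 higher and Slc7a11 lower, against 4.22% of all genes. The median log2 fold change of the 28 was 0.02, against 0.01 over all genes tested. The highest values were 0.58 for Gstp1, a glutathione transferase at 1.26 CPM under PBS, and 0.40 for Ephx1, an epoxide hydrolase at 2.37 CPM. Gstp1 had 1.28, 1.44, 1.09 and 1.25 CPM under PBS and 2.54, 1.91, 1.57 and 1.59 CPM under rFSTL1. Its groups did not overlap, an upward separation that 4.63% of all genes tested had, and its adjusted p-value by edgeR was 0.262. Gstp1 has close paralogs with which reads may be shared. The lowest values were -0.21 for Slc7a11, the cystine importer that feeds glutathione synthesis, and -0.13 for Cbr3, a carbonyl reductase. Slc7a11 had 51.4, 55.2, 52.8 and 55.1 CPM under PBS and 47.0, 51.5, 44.1 and 42.8 CPM under rFSTL1. Its adjusted p-value was 0.142 by edgeR, and the groups overlapped through rFSTL1 replicate 2 alone. Gsta3, Gsta4 and Mgst1 had at most 4 counts in any library.

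Among 13 partners and regulators of NRF2 and BACH1, 12 were tested, none was called, and 3 had an unadjusted p-value under 0.05 by edgeR, all higher, against 8.29% of all genes higher at that threshold. Syvn1 was called by DESeq2 and by limma voom, and also by edgeR once the filter on low counts was dropped, so that each gave 1 call, against 2.12%, 4.22% and 0.863% of the genes each gave an adjusted p-value. The median log2 fold change was 0.05. Maff, a small MAF partner, had 7.77, 7.31, 6.71 and 5.45 CPM under PBS and 7.95, 10.4, 8.32 and 9.65 CPM under rFSTL1. The groups of Maff did not overlap, an upward separation that 4.63% of all genes tested had. The log2 fold change of Maff was 0.41 (SE 0.13, adjusted p = 0.171 by edgeR). Syvn1, an endoplasmic reticulum ubiquitin ligase, had a PBS mean of 31.2 ± 1.89 CPM and an rFSTL1 mean of 37.8 ± 2.07 CPM (SD, n = 4 in each group), a log2 fold change of 0.28 (adjusted p = 0.0729 by edgeR). Cul3, the ligase scaffold that works with KEAP1, had -0.14, and the coactivator Crebbp had -0.06. Bach2 had at most 2 counts in any library.

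Heme handling genes were followed because Hmox1 acts on heme. Of 18 listed, 17 were tested and none was called, while 4 had an unadjusted p-value under 0.05 by edgeR, 2 higher and 2 lower, against 15.9% of all genes. DESeq2 called 1 of the 17, Alas1, against 2.12% of the genes it gave an adjusted p-value, and limma voom called none. The median log2 fold change was 0.02. Alas1, the enzyme that begins heme synthesis, had 31.0, 32.7, 29.8 and 27.9 CPM under PBS and 37.1, 38.0, 33.6 and 37.6 CPM under rFSTL1. Its groups did not overlap, an upward separation that 4.63% of all genes tested had. The log2 fold change of Alas1 was 0.27 (SE 0.07, adjusted p = 0.0934 by edgeR). Hebp1, a heme-binding protein, had 0.42 at 2.58 CPM under PBS. Abcg2, a transporter that exports porphyrins, had -0.53 at 2.84 CPM, and Flvcr1, a heme exporter, had -0.17.

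Hmox2, the constitutive heme oxygenase, and the genes that take up the products of heme breakdown were named for their roles after their values had been seen. Hmox2 ranged from 60.2 to 67.1 CPM under PBS and from 65.7 to 69.1 CPM under rFSTL1, with a log2 fold change of 0.10 (SE 0.05, adjusted p = 0.331 by edgeR). Blvra, a biliverdin reductase, had a log2 fold change of -0.01. The ferritin chains Fth1 and Ftl1, which store iron and are NRF2 targets, had 0.11 and 0.11, with adjusted p-values of 0.194 and 0.248 by edgeR. Ferritin genes have many processed copies, and their counts are uncertain to that extent.

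Other enzymes against peroxide and superoxide had mostly small positive values. All 15 listed were tested, none was called, and 4 had an unadjusted p-value under 0.05 by edgeR, all higher, against 8.29% of all genes higher. By DESeq2 1 was called, Prdx5 (against 2.12% of the genes it gave an adjusted p-value), and by limma voom 2 were called, Prdx5 and Gpx4 (4.22% of all genes). The median log2 fold change was 0.06, and 12 of 15 values were positive. Of all genes tested, 48.0% had a negative value. Positive values also numbered 19 among the 28 other NRF2 targets, 9 among the 12 partners and 12 among the 17 heme genes. Sesn2, a stress-induced sestrin, had 0.28. Prdx5, a mitochondrial and peroxisomal peroxiredoxin, had 50.5, 47.8, 48.2 and 45.4 CPM under PBS and 52.7, 64.5, 57.8 and 56.0 CPM under rFSTL1. Its groups did not overlap, an upward separation that 4.63% of all genes tested had. The log2 fold change of Prdx5 was 0.27 (SE 0.06, adjusted p = 0.0760 by edgeR). The lowest values were -0.04 for Prdx3 and -0.02 for Prdx2.

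**Figure D5:**
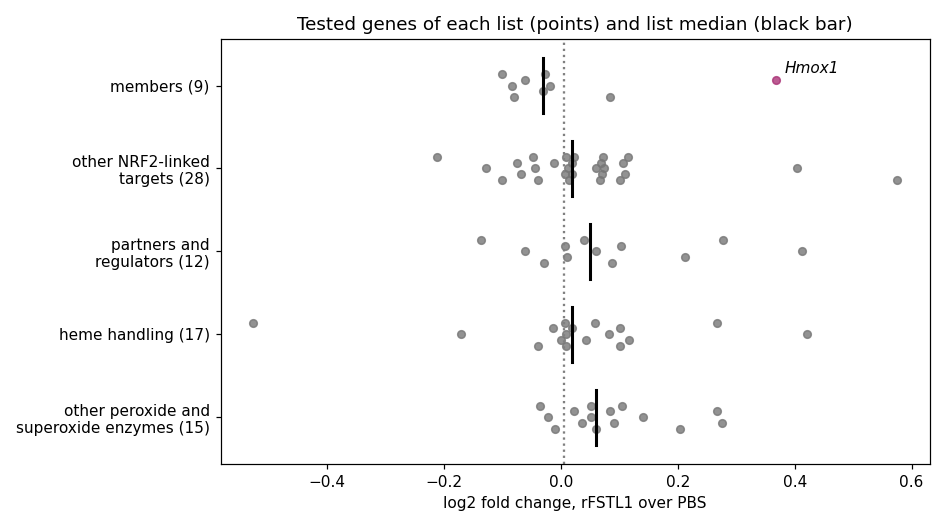
Log2 fold change of rFSTL1 over PBS for each tested gene of the members and of 4 further lists (points). Black bars are list medians, and the dotted line is the median of all genes tested. Hmox1 (coloured) is the 1 plotted gene called by edgeR with the filter and all 8 libraries, and the list medians lie between -0.03 and 0.06.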

How the data were processed

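Poly(A) RNA of RAW264.7 cells was sequenced from 4 PBS and 4 rFSTL1 libraries, grouped by the treatment label. The authors deposited expected counts (estimated counts) for 22013 genes without normalization. The submitters' processing notes list Bowtie2 2.2.8, HISAT2, StringTie 1.3.1 and DESeq2, with no roles, and the genome build is not given in the sources used here. Of the nonzero values, 13.0% were not whole, and all were rounded. Genes were kept by filterByExpr (minimum count 10), scaled by TMM and fitted with edgeR 4.0.16 (glmQLFit, glmQLFTest) under R 4.3.3, and p-values were adjusted by Benjamini-Hochberg over 10748 genes. Standard errors were derived from the F statistic, and 95% intervals from the same fit. The script was tested on simulated data. The lowest chi-square per degree of freedom of a same-group pair of libraries was 3.05, so no pair agreed within counting noise.

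The members and lists were chosen with earlier results of these data known. Named genes were all members and, from each list, every called gene and those with the 2 highest and 2 lowest log2 fold changes, and the 5 genes nearest to Hmox1. A few others, among them Hmox2, Blvra, the ferritin chains and genes too low to test, were named after their values were seen. Alternatives were DESeq2 1.42.0, limma 3.58.1 (voom with sample quality weights), other scalings and filters, a replicate block, and leaving out each library. Lengths came from GENCODE vM21 and promoter letters from the RefSeq table. Reads shared by paralogs or overlapping genes were not resolved. Besides the 8 and 11 cell type markers counted, 1 further listed marker is not reported here.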

Additional observations from a re-analysis of the deposited data

Results flagged for a closer look

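Among 18 groups of 4 libraries (9 tested members in 2 groups), 2 had a library far from the other 3 by Dixon's criterion, and chance alone would give about 0.9. Txnrd1 was at 288 CPM in PBS replicate 4, against 268 to 271 CPM in the other PBS libraries. Bach1 was at 32.1 CPM in rFSTL1 replicate 1, against 36.2 to 36.6 CPM in the other rFSTL1 libraries, and this was also the library with the highest Hmox1 level, 162 CPM. The cause of either value was not tested.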

How the results depend on the processing

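Hmox1 kept a positive log2 fold change in all 14 alternative fits, 0.32 to 0.41 when 1 library was left out and 0.32 to 0.38 otherwise. Its call was lost in 1 of them, without PBS replicate 4 (0.35, adjusted p = 0.0631 by edgeR, the highest of the 14). The count of members called was 0 to 1 across the fits without 1 library and 1 in the others. Small values changed sign: across the fits without 1 library Gclm was -0.049 to 0.034 (positive without PBS replicate 4, and 0.0069 without rFSTL1 replicate 3) and Bach1 was -0.053 to 0.0051 (positive without rFSTL1 replicate 1). The other 6 tested members kept their sign and remained uncalled throughout.

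The number of genes called, 37, was 197 with DESeq2 (136 higher, 61 lower), 454 with limma voom (244 higher, 210 lower), 56 with upper-quartile scaling, 127 without the filter on low counts (101 higher, 26 lower) and 133 at an adjusted p under 0.1. It was 11 without PBS replicate 2 and 99 without rFSTL1 replicate 1, and 24, 12, 12, 90 and 16 without PBS replicate 1, 3 or 4 or rFSTL1 replicate 2 or 3. The cause was not tested.

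Of the further NRF2 targets, 2 were called with limma voom (Fth1 higher, Slc7a11 lower) and 0 to 1 without 1 library (Slc7a11, without rFSTL1 replicate 2). Of the partners, 1 was called with DESeq2, limma voom or no filter on low counts, and 0 to 1 without 1 library (Syvn1, without rFSTL1 replicate 2). Of the heme genes, 1 was called with DESeq2 (Alas1). Of the peroxide enzymes, 1 was called with DESeq2 or without the filter, 2 with limma voom, and 0 to 2 without 1 library (Prdx5 and Gpx4, without rFSTL1 replicate 1). The largest shift of the median over all genes under another scaling was 0.011, with upper-quartile scaling.

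Libraries with the same number did not deviate together: their deviations correlated at -0.09, 0.08, -0.01 and 0.00. With a replicate block, 41 genes were called, and Hmox1 had a log2 fold change of 0.37.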
